A study of Oryza sativa Japonica Group with 6 samples.

Results

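In young rice panicles, 10 genes with a known part in the pollen wall, the anther cuticle or pollen development were read. They are *CYP703A3*, *CYP704B2*, *DPW*, *OsC6*, *OsRAFTIN1*, *WDA1*, *OsABCG15*, *OsPKS1*, *OsACOS12* and *OsCP1*. They were chosen by name for that part, with earlier results of these data known. Matched by locus identifier, all 10 were found among the 42189 genes of the table. The panicles were taken before heading from NIL-*hfr131* (3 libraries) and from 187R (3 libraries), grown without treatment. 187R, labelled wild type with the genotype *HFR131*, is the *indica* restorer line used as the recipient parent, and NIL-*hfr131*, labelled mutant with the genotype *hfr131*, is a near-isogenic line that carries the *hfr131* allele of the brassinosteroid receptor gene *OsBRI1* from the wild rice *Oryza longistaminata*. That allele differs from the one in 187R by a deletion in the promoter and by an amino acid in the kinase domain, and the line can also carry other wild-rice sequence next to the gene. The comparison asks how the transcripts of these 10 genes differ between the line with the wild-rice receptor allele and its parent.

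The wall of a pollen grain is made largely of sporopollenin, a tough polymer of fatty acid and phenolic units, and the outside of the anther is covered by cutin and wax. The precursors are made in the tapetum, the innermost layer of the anther wall, which surrounds the developing microspores. Fatty acids are activated, hydroxylated, reduced and extended there, then exported by transporters, carried by lipid transfer proteins and laid down on the microspores and on the anther surface. Loss of any of several of these enzymes in rice leaves pollen without a normal wall and makes the plant male sterile.

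Levels are in TPM, which correct the reads of a gene for its length and for the size of the library. They are shares of a fixed total, so a comparison between libraries also depends on what else each library holds. Each library summed to 1000000 TPM, so the sequencing depth is unknown and the error given is the spread between libraries (SD, n = 3 per line). Fold changes are differences of log2(TPM + 1), NIL-*hfr131* minus 187R, with the standard error and the adjusted *P* of limma over the 21531 genes with a mean of at least 1 TPM. All 10 genes were above that minimum and were tested. NIL-*hfr131* replicate 3 stood apart from the rest: its Pearson correlation across genes, on the log2 scale, was 0.916 to 0.937 with each of the other libraries and 0.982 to 0.991 between any pair of those. The fold changes of the 10 genes and the counts over each list are therefore also given without it. Genes of floral organs were abundant in every library, with *OsMADS1* at 547 to 572 TPM in NIL-*hfr131* and 541 to 580 TPM in 187R.

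Of the 10 genes, 9 were strongly expressed in both lines. Ranked by the mean of all 6 libraries among the 42189 genes, *OsACOS12* was 61st, *OsC6* 92nd, *CYP704B2* 98th, *OsPKS1* 109th and *CYP703A3* 128th. *DPW* was 325th, *WDA1* 546th, *OsRAFTIN1* 616th and *OsABCG15* 1207th. Only *OsCP1*, at 17149th, was weakly expressed. Together the 10 genes made up 0.667%, 0.641% and 0.606% of the transcripts in NIL-*hfr131* replicates 1, 2 and 3, against 0.446%, 0.476% and 0.524% in 187R replicates 1, 2 and 3. The sum was higher in every NIL-*hfr131* library than in every 187R library, also without *OsC6*, at 4849 to 5288 TPM in NIL-*hfr131* against 4051 to 4735 TPM in 187R. This did not hold for the 10 tested genes of a second list, described below, whose sums overlapped between the lines. Those sums were 2682, 2465 and 1896 TPM in NIL-*hfr131* replicates 1, 2 and 3, against 2434, 2444 and 2664 TPM in 187R replicates 1, 2 and 3.

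**Figure D1:**
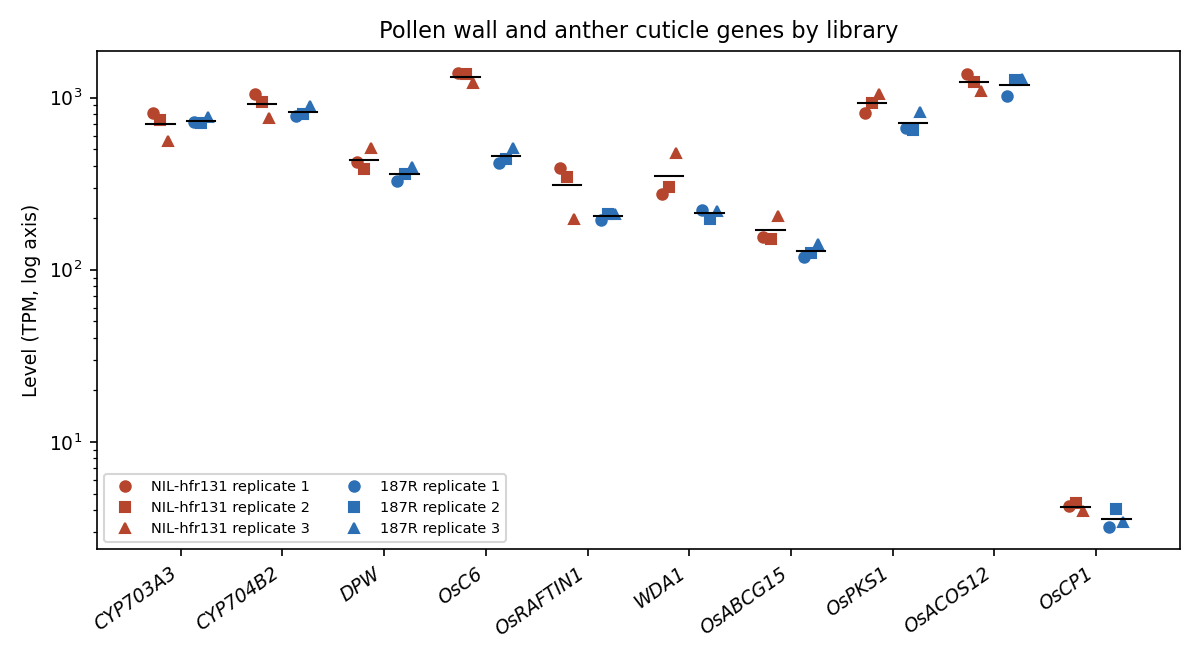
Levels of the 10 genes in TPM on a log axis, with NIL-*hfr131* libraries in red on the left and 187R libraries in blue on the right of each gene; the marker shape is the replicate number and black bars are means of 3 libraries. *OsC6* was the gene whose lines were farthest apart, at 1211 to 1380 TPM in NIL-*hfr131* and 414 to 509 TPM in 187R.

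*OsC6* was the 1 gene of the 10 that changed at an adjusted *P* under 0.05, and it rose. The same call was made for 0.251% of all tested genes as higher in NIL-*hfr131* and for 0.307% in either direction. In 3 of the 10 genes, *OsC6*, *WDA1* and *OsABCG15*, the lowest NIL-*hfr131* value exceeded the highest 187R value, as in 8.59% of all tested genes. At an unadjusted *P* under 0.05, 4 of the 10 were higher in NIL-*hfr131*, those 3 and *OsPKS1*, against 4.05% of all tested genes. The log2 fold change was above 0 in 9 of the 10 genes, against 57.6% of all tested genes, with a median of 0.32 over the 10 and 0.05 over all tested genes. Without NIL-*hfr131* replicate 3 it was above 0 in 10 of 10, against 42.3% of all tested genes, with medians of 0.27 and -0.03. In that fit 2 of the 10, *OsC6* and *OsRAFTIN1*, were called higher, against 1.31% of all tested genes, and 5 were higher at an unadjusted *P* under 0.05, against 6.91%. The 10 genes were chosen with earlier results of these data known, so these shares are not a test of the group.

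**Figure D2:**
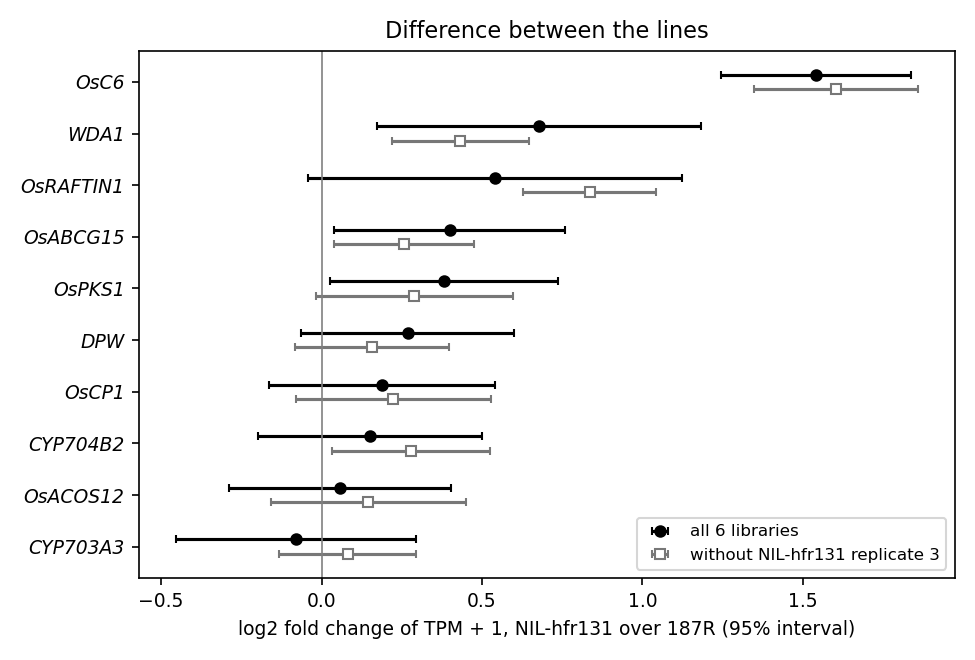
Log2 fold change of TPM + 1 (NIL-*hfr131* over 187R) with its 95% interval from limma, for all 6 libraries (filled) and without NIL-*hfr131* replicate 3 (open). The interval of *OsC6* ran from 1.25 to 1.84, and that of *OsRAFTIN1* moved clear of 0 when the library was left out.

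*OsC6* (LOC_Os11g37280, chromosome 11) encodes a lipid transfer protein that is secreted by the tapetum and is needed for the orbicules and the outer pollen wall. Its level was 1380, 1372 and 1211 TPM in NIL-*hfr131* replicates 1, 2 and 3, against 414, 440 and 509 TPM in 187R replicates 1, 2 and 3. Every NIL-*hfr131* library was thus far above every 187R library. The mean was 1321 ± 95.7 TPM in NIL-*hfr131* against 454 ± 48.9 TPM in 187R, a ratio of 2.91. On the log2 scale the rise was 1.54 ± 0.12 (standard error; limma adjusted p = 0.00695), the 17th lowest *P* and the 59th highest fold change of the 21531 tested genes. Without NIL-*hfr131* replicate 3 it was 1.60 (adjusted p = 0.000805, limma). Leaving out any 1 library moved the log2 fold change only between 1.48 and 1.62. The adjusted *P* of limma was 0.0731, 0.0886 and 0.0501 without 187R replicate 1, 2 or 3 and 0.0749 without NIL-*hfr131* replicate 2. The call was thus lost in those fits, in which 13 to 15 of all tested genes were called, against 66 over all libraries.

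The rise of *OsC6* changed its place among the 10 genes. It was first of the 10 in every NIL-*hfr131* library and 5th in every 187R library. Its level was 1.00, 1.11 and 1.11 times that of *OsACOS12* in NIL-*hfr131* replicates 1, 2 and 3, against 0.406, 0.349 and 0.398 times in 187R replicates 1, 2 and 3. *OsC6* made up 20.0% to 21.4% of the sum of the 10 genes in NIL-*hfr131* and 9.26% to 9.70% in 187R.

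None of the genes next to *OsC6* was called as higher. Locus numbers increase along a chromosome, and within 100 locus numbers of *OsC6* there were 6 other tested genes, with log2 fold changes of -0.26 to 0.86 and none called. The highest of them, LOC_Os11g37320, was at 3.34, 6.53 and 4.70 TPM in NIL-*hfr131* replicates 1, 2 and 3, against 2.20, 1.29 and 3.30 TPM in 187R replicates 1, 2 and 3 (adjusted p = 0.508, limma). Within 1000 locus numbers, 2 of 56 other tested genes were called, against 0.307% of all tested genes. They were LOC_Os11g37950 and LOC_Os11g37970, and they fell, in the opposite direction to *OsC6*. LOC_Os11g37950 was at 2.57 to 2.79 TPM in NIL-*hfr131* and 7.70 to 8.95 TPM in 187R, a log2 fold change of -1.33 (adjusted p = 0.0169, limma). LOC_Os11g37970 was at 3.03 to 3.52 TPM in NIL-*hfr131* and 8.78 to 9.22 TPM in 187R, with -1.24 (adjusted p = 0.0199, limma). With *OsC6* these are 3 of the 4 called genes among 1046 tested on chromosome 11. This look at the neighbours was chosen after the values of *OsC6* were seen, and the alleles that the 2 lines carry there were not examined.

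**Figure D3:**
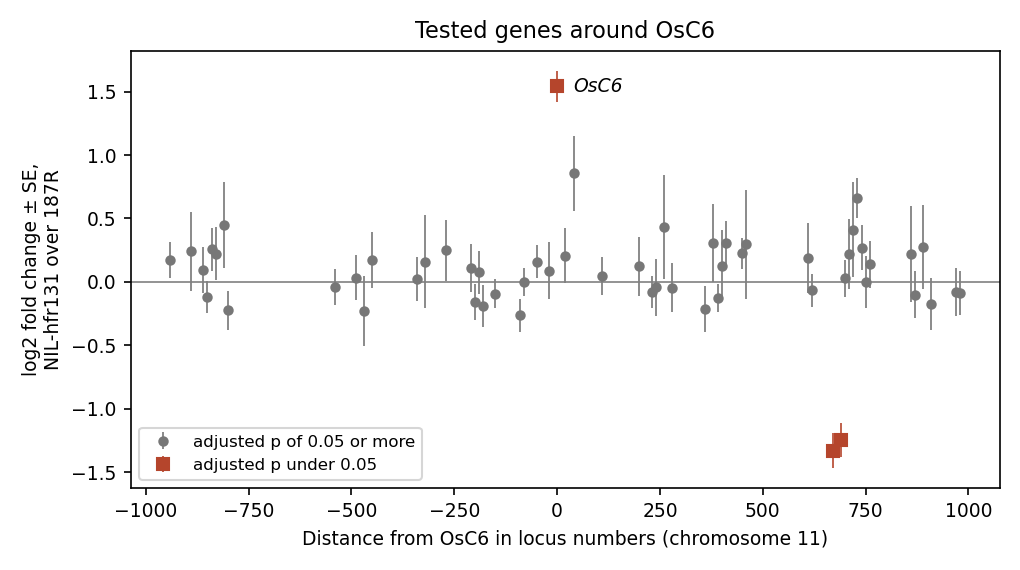
Log2 fold change with its standard error (NIL-*hfr131* over 187R) of the tested genes within 1000 locus numbers of *OsC6*, against their distance in locus numbers. Red squares are the called genes: *OsC6* at 1.54 and, 670 and 690 locus numbers above it, LOC_Os11g37950 at -1.33 and LOC_Os11g37970 at -1.24.

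None of the genes that activate, hydroxylate and reduce fatty acids was called. *OsACOS12* (LOC_Os04g24530, chromosome 4), an acyl-CoA synthetase that activates fatty acids for sporopollenin, was at 1377, 1237 and 1087 TPM in NIL-*hfr131* replicates 1, 2 and 3, against 1019, 1263 and 1278 TPM in 187R replicates 1, 2 and 3. The ranges lay across each other. The log2 fold change of *OsACOS12* was 0.06, its 95% interval running from -0.29 to 0.40 (limma adjusted p = 0.874), and 0.14 without NIL-*hfr131* replicate 3.

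*CYP703A3* (LOC_Os08g03682, chromosome 8) and *CYP704B2* (LOC_Os03g07250, chromosome 3) encode cytochrome P450 enzymes that hydroxylate fatty acids, which gives units for both sporopollenin and cutin. *CYP703A3* was at 810, 745 and 556 TPM in NIL-*hfr131* replicates 1, 2 and 3, against 722, 711 and 769 TPM in 187R replicates 1, 2 and 3. *CYP704B2* was at 1052, 945 and 763 TPM in NIL-*hfr131*, against 777, 798 and 894 TPM in 187R, in the same order of replicates. In each of these 2 genes NIL-*hfr131* replicate 3 was the lowest of all 6 libraries. The log2 fold changes were -0.08 with an interval of -0.45 to 0.30 for *CYP703A3* and 0.15 with an interval of -0.20 to 0.50 for *CYP704B2* (adjusted p = 0.833 and 0.706, limma). Without that library they were 0.08 and 0.28 (adjusted p = 0.750 and 0.274, limma), so the direction for *CYP703A3* rested on 1 library.

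*DPW* (LOC_Os03g07140, chromosome 3) encodes a plastid enzyme that reduces fatty acyl groups to fatty alcohols. It was at 419, 384 and 506 TPM in NIL-*hfr131* replicates 1, 2 and 3, against 329, 359 and 394 TPM in 187R replicates 1, 2 and 3. Its ranges overlapped only between the lowest NIL-*hfr131* and the highest 187R library. For *DPW* the log2 fold change was 0.27, with an interval of -0.06 to 0.60 (limma adjusted p = 0.678), and 0.16 when NIL-*hfr131* replicate 3 was left out. *DPW* and *CYP704B2* lie close together on chromosome 3 and were tested as separate genes.

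*OsPKS1* (LOC_Os10g34360, chromosome 10), a polyketide synthase that extends the activated fatty acids, was at 810, 929 and 1052 TPM in NIL-*hfr131* replicates 1, 2 and 3, against 668, 649 and 826 TPM in 187R replicates 1, 2 and 3. The lowest NIL-*hfr131* library was just below the highest 187R library. On the log2 scale the difference was 0.38 ± 0.15 (standard error; limma adjusted p = 0.566), and 0.29 without NIL-*hfr131* replicate 3.

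*WDA1* and *OsABCG15* were higher in every NIL-*hfr131* library than in every 187R library, but neither passed the adjusted threshold. *WDA1* (LOC_Os10g33250, chromosome 10) is needed for very-long-chain lipids of the anther epidermis. It was at 273, 301 and 478 TPM in NIL-*hfr131* replicates 1, 2 and 3, against 221, 197 and 220 TPM in 187R replicates 1, 2 and 3. Its difference was 0.68 ± 0.21 on the log2 scale (standard error; limma adjusted p = 0.457), and without NIL-*hfr131* replicate 3, its highest library, it was 0.43 (adjusted p = 0.0749, limma). *OsABCG15* (LOC_Os06g40550, chromosome 6) encodes an ABC transporter that exports lipid precursors from the tapetum. It was at 154, 151 and 205 TPM in NIL-*hfr131* replicates 1, 2 and 3, against 118, 125 and 140 TPM in 187R replicates 1, 2 and 3. Its difference was 0.40 ± 0.15 on the log2 scale (standard error; limma adjusted p = 0.551), and 0.26 without NIL-*hfr131* replicate 3. With 3 libraries a line, the smallest *P* that an exact permutation test of a single gene allows is 0.1.

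*OsRAFTIN1* (LOC_Os08g38810, chromosome 8) encodes an anther protein with a BURP domain that is known for its part in pollen development. It was at 387, 346 and 198 TPM in NIL-*hfr131* replicates 1, 2 and 3, against 194, 209 and 210 TPM in 187R replicates 1, 2 and 3. NIL-*hfr131* replicates 1 and 2 were thus well above all 187R libraries, whereas replicate 3 was within their range. Over all libraries the difference was 0.54 ± 0.25 on the log2 scale (standard error; limma adjusted p = 0.637). When that library was left out it was 0.84 ± 0.088 (limma adjusted p = 0.00598), the mean of replicates 1 and 2 being 1.79 times that of 187R.

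*OsCP1* (LOC_Os04g57490, chromosome 4), a cysteine protease needed for pollen development, was at 4.26, 4.41 and 3.95 TPM in NIL-*hfr131* replicates 1, 2 and 3, against 3.21, 4.09 and 3.44 TPM in 187R replicates 1, 2 and 3. *OsCP1* was thus the lowest of the 10 genes in every library. Its log2 fold change was 0.19 with an interval of -0.16 to 0.54 (adjusted p = 0.694, limma), and 0.22 without NIL-*hfr131* replicate 3.

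NIL-*hfr131* replicate 3 split the 10 genes into 2 sets. It had the highest of the 3 NIL-*hfr131* values in *WDA1*, *OsABCG15*, *DPW* and *OsPKS1*, at 1.21 to 1.66 times the mean of replicates 1 and 2. It had the lowest in the other 6, at 0.539 times that mean in *OsRAFTIN1*, 0.715 in *CYP703A3*, 0.765 in *CYP704B2*, 0.832 in *OsACOS12*, 0.880 in *OsC6* and 0.911 in *OsCP1*. Such a place outside the other replicates of its line was found in 89.8% of all tested genes. The median size of the difference was 0.36 on the log2 scale over the 10 genes and 0.42 over all tested genes. In 187R the SD of each of the 10 genes was 4.19% to 13.6% of its mean, and in NIL-*hfr131* 5.54% to 32.1%.

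**Figure D4:**
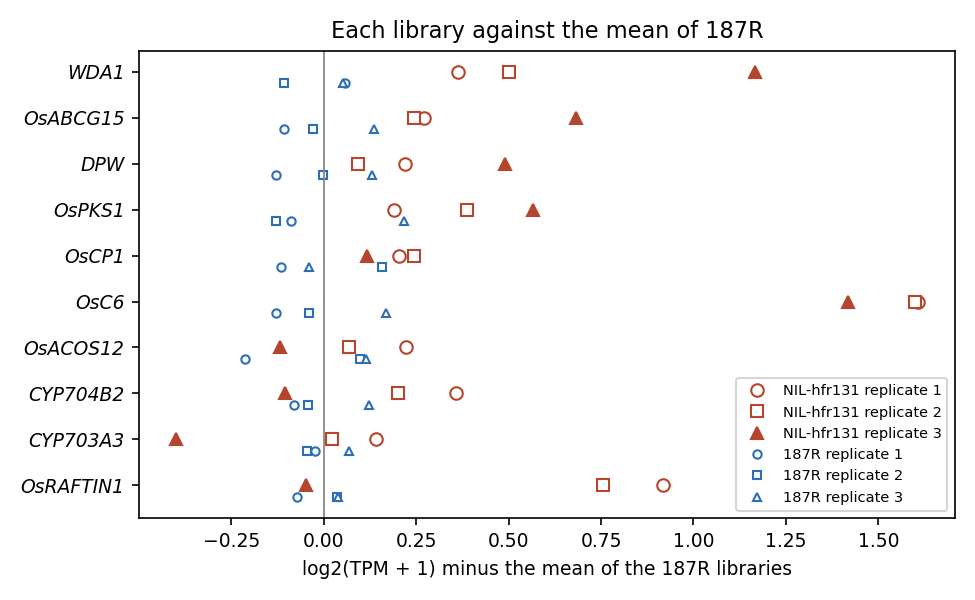
Log2(TPM + 1) of each library minus the mean of the 187R libraries, for the 10 genes in the order of the difference between NIL-*hfr131* replicate 3 (filled triangles) and the other NIL-*hfr131* libraries (open red). *OsC6* was far above 187R in all 3 NIL-*hfr131* libraries, whereas *OsRAFTIN1* was above it only in replicates 1 and 2.

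Other genes of the pollen wall, the anther cuticle and the tapetum were read from a second list. Of 11 genes on it, 10 were found and tested. Of those, 0 were called in either direction, with 1 at an unadjusted *P* under 0.05, against 8.36% of all tested genes. Their log2 fold changes ran from -0.40 to 0.15 with a median of -0.10, 3 above 0 and 7 below, and without NIL-*hfr131* replicate 3 the median was -0.01 with 0 called. In that fit 5 of the 10 were above 0, against 42.3% of all tested genes, and 4 were at an unadjusted *P* under 0.05, against 14.8%. Of these 4, named after their values were seen, LOC_Os01g61940, LOC_Os11g45400 and LOC_Os02g28970 were lower and LOC_Os10g38050 was higher. The most abundant, LOC_Os07g22850, was at 987, 840 and 529 TPM in NIL-*hfr131* replicates 1, 2 and 3, against 880, 908 and 1037 TPM in 187R replicates 1, 2 and 3. *OsAP25* (LOC_Os03g08790), an aspartic protease of the tapetum, was at 611 to 736 TPM in NIL-*hfr131* and 607 to 696 TPM in 187R. The gene at an unadjusted *P* under 0.05 over all libraries, named after its values were seen, was LOC_Os11g45400, at 11.3 ± 0.318 TPM in NIL-*hfr131* against 15.3 ± 0.288 TPM in 187R, a log2 fold change of -0.40 (adjusted p = 0.399, limma) and of -0.42 without NIL-*hfr131* replicate 3 (adjusted p = 0.0723).

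Regulators of the tapetum were read because several of the 10 genes are known to act under them. Of 9 tapetum regulators tested 0 were called, with 3 at an unadjusted *P* under 0.05, against 8.36% of all tested genes. Their log2 fold changes ran from -0.36 to 0.78, with 4 above 0 and 5 below. Without NIL-*hfr131* replicate 3, 0 were called and 6 were at an unadjusted *P* under 0.05, against 14.8% of all tested genes. Of these 6, named after their values were seen, *MSP1*, *OsTDL1A*, *TIP2* and LOC_Os04g39470 were lower and *GAMYB* and *PTC1* higher. *TDR* (LOC_Os02g02820), a bHLH factor known to bind the promoters of *OsC6* and *OsCP1*, was at 190, 189 and 155 TPM in NIL-*hfr131* replicates 1, 2 and 3, against 197, 199 and 220 TPM in 187R replicates 1, 2 and 3. All 3 NIL-*hfr131* values of *TDR* were below those of 187R, as in 2144 of the 21531 tested genes. Of the 9 regulators, 3 lay wholly below 187R, *TDR* among them. Wholly above 187R lay 1 of the 9, as did 8.59% of all tested genes. The sum of the 9 was 434, 425 and 419 TPM in NIL-*hfr131* replicates 1, 2 and 3, against 440, 446 and 481 TPM in 187R replicates 1, 2 and 3. Every NIL-*hfr131* sum was thus below every 187R sum, the opposite order to the sum of the 10 pollen wall genes. For *TDR* the log2 fold change was -0.21 with an interval of -0.50 to 0.08 (adjusted p = 0.694, limma), and -0.12 without NIL-*hfr131* replicate 3 (adjusted p = 0.591). *EAT1* (LOC_Os04g51070), a bHLH factor that acts after *TDR* and was chosen after its values were seen, was at 43.8, 46.4 and 57.6 TPM in NIL-*hfr131* and 37.1, 36.2 and 44.6 TPM in 187R (adjusted p = 0.645, and 0.460 without NIL-*hfr131* replicate 3, limma). *GAMYB* (LOC_Os01g59660), a gibberellin-responsive MYB factor known to act upstream of *CYP703A3*, also chosen after its values were seen, was at 18.6, 19.0 and 25.1 TPM in NIL-*hfr131* and 17.9, 9.86 and 8.77 TPM in 187R (adjusted p = 0.504, and 0.303 without NIL-*hfr131* replicate 3, limma). LOC_Os04g39470, the second most abundant of the list, was at 54.6 to 71.9 TPM in NIL-*hfr131* and 79.7 to 81.6 TPM in 187R, a log2 fold change of -0.36 (adjusted p = 0.523, limma) and of -0.26 without NIL-*hfr131* replicate 3 (adjusted p = 0.218). *TIP2* (LOC_Os01g18870), a bHLH partner of *TDR*, was the regulator nearest to a call without NIL-*hfr131* replicate 3 and is named for that. Its level was 38.7, 40.2 and 54.8 TPM in NIL-*hfr131*, against 50.7, 55.6 and 58.4 TPM in 187R, with a log2 fold change of -0.31 (adjusted p = 0.672, limma) and of -0.46 without that library (adjusted p = 0.0539).

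Genes of earlier and later anther stages were read beside these. Of 10 meiosis genes 0 were called, with 1 at an unadjusted *P* under 0.05, against 8.36% of all tested genes. Without NIL-*hfr131* replicate 3, 0 were called and 3 were at that level, against 14.8% of all tested genes. The sum of the 10 was 61.4, 60.3 and 90.3 TPM in NIL-*hfr131* replicates 1, 2 and 3, against 74.7, 74.4 and 76.1 TPM in 187R replicates 1, 2 and 3. NIL-*hfr131* replicates 1 and 2 were thus below every 187R library, and only replicate 3 was above them. Without that library, the log2 fold change was above 0 in 3 of the 10, against 42.3% of all tested genes, with a median of -0.15. The 3 at an unadjusted *P* under 0.05 in that fit were *PAIR2*, *MEL1* and *ZEP1*, the last named after its values were seen, and all were lower. *PAIR2* (LOC_Os09g32930), a protein of the meiotic chromosome axis, was at 15.3, 13.2 and 19.1 TPM in NIL-*hfr131* and 20.7, 20.1 and 21.2 TPM in 187R (log2 fold change -0.38, adjusted p = 0.589, limma), and without NIL-*hfr131* replicate 3 the log2 fold change was -0.51 (adjusted p = 0.0523). *MEL1* (LOC_Os03g58600), a germline Argonaute, was at 8.78, 7.75 and 15.2 TPM in NIL-*hfr131* and 12.2, 12.9 and 12.1 TPM in 187R (log2 fold change -0.27, adjusted p = 0.696, limma), and without that library the log2 fold change was -0.54 (adjusted p = 0.0526). Of 4 late pollen genes 1 passed the minimum level and was not called with or without NIL-*hfr131* replicate 3, and the sum of the 4 was 1.51 to 2.10 TPM in NIL-*hfr131* and 1.64 to 1.89 TPM in 187R. The most abundant of them, LOC_Os08g38590, was at 1.05 to 1.38 TPM in NIL-*hfr131* and 0.939 to 1.31 TPM in 187R, and LOC_Os06g03610 was at 0.368 to 0.757 TPM in NIL-*hfr131* and 0.423 to 0.546 TPM in 187R. The part of developmental stage in the rise of *OsC6* was not tested. Whole panicles were used, so more anther cells and more RNA per cell cannot be told apart.

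Of 9 floral organ genes 0 were called, with 0 at an unadjusted *P* under 0.05 in limma, against 8.36% of all tested genes. Without NIL-*hfr131* replicate 3, 0 were called and 2 were at that level, against 14.8% of all tested genes. The sum of the 9 was 2224, 2227 and 1996 TPM in NIL-*hfr131* replicates 1, 2 and 3, against 1924, 1835 and 2105 TPM in 187R replicates 1, 2 and 3. *OsMADS16* (LOC_Os06g49840), which specifies stamens and lodicules, was at 790, 780 and 617 TPM in NIL-*hfr131* and 518, 490 and 725 TPM in 187R, and these ranges overlapped. Its log2 fold change was 0.35 (adjusted p = 0.684, limma) and, without NIL-*hfr131* replicate 3, 0.46 (adjusted p = 0.258). *OsMADS3* (LOC_Os01g10504), named after its values were seen, was at 98.3 to 136 TPM in NIL-*hfr131* and 84.0 to 92.8 TPM in 187R. The NIL-*hfr131* range thus lay wholly above that of 187R, as in 8.59% of all tested genes. Its log2 fold change was 0.32 (adjusted p = 0.637, limma), and 0.18 without NIL-*hfr131* replicate 3 (adjusted p = 0.373, limma). *OsMADS1* (LOC_Os03g11614), which specifies the organs of the spikelet, had a log2 fold change of 0.01 with an interval of -0.22 to 0.23 (adjusted p = 0.984, limma), and 0.02 without NIL-*hfr131* replicate 3.

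The log2 fold changes of 5 green tissue genes ran from -0.33 to 1.65, with 3 above 0 and 2 below. A call as higher was made for 0.251% of all tested genes, and for 1.31% without NIL-*hfr131* replicate 3. Of the 5, 2 were called as higher, with or without that library. They are 2 of the 3 listed copies of the small subunit of Rubisco, LOC_Os12g19381, at 83.5, 76.5 and 60.5 TPM in NIL-*hfr131* against 19.2, 24.3 and 24.2 TPM in 187R, and LOC_Os12g19470, at 35.7, 30.2 and 26.9 TPM in NIL-*hfr131* against 9.84, 8.81 and 9.67 TPM in 187R. Their log2 fold changes were 1.65 and 1.61 (adjusted p = 0.0154 and 0.0105, limma). The call of LOC_Os12g19381 was lost, at an adjusted p of 0.0567 to 0.120, without any 187R library and without NIL-*hfr131* replicate 1 or 2. That of LOC_Os12g19470 was lost, at 0.0916 to 0.120, without any 187R library and without NIL-*hfr131* replicate 2. Near-identical copies can share reads, so the values of single copies are uncertain. The third copy, LOC_Os12g17600, which was not called and is given to complete the set after its values were seen, was at 31.7 to 42.5 TPM in NIL-*hfr131* and 32.1 to 35.9 TPM in 187R. The chlorophyll-binding protein gene *CAB2R* (LOC_Os01g41710) was at 735 to 1224 TPM in NIL-*hfr131* and 1187 to 1280 TPM in 187R. The sum of the 5 genes was 883 to 1441 TPM in NIL-*hfr131* and 1290 to 1398 TPM in 187R, and the part of green tissue in the rise of *OsC6* was not tested.

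**Figure D5:**
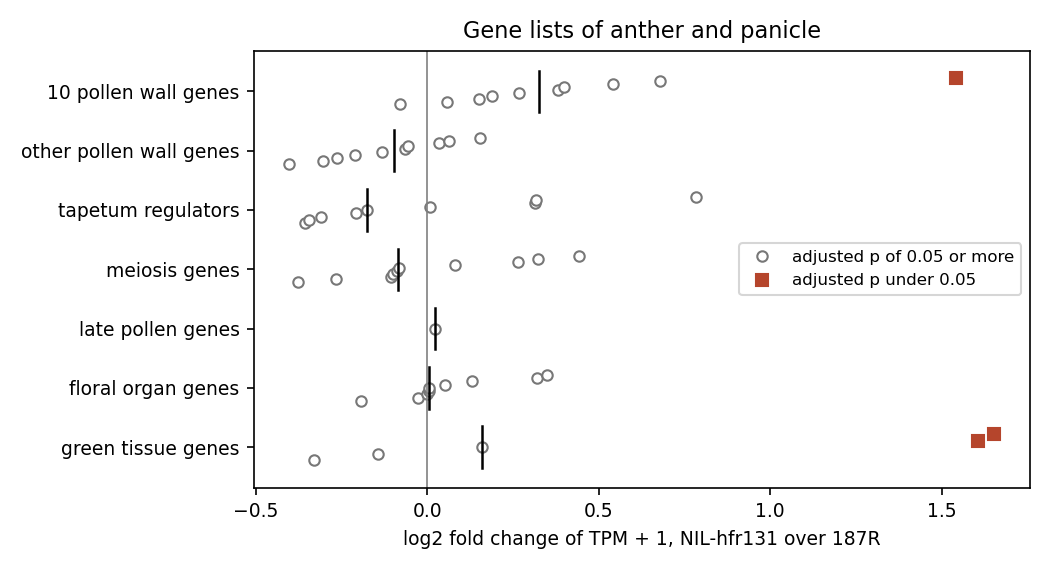
Log2 fold changes of TPM + 1 (NIL-*hfr131* over 187R) of the tested genes of each list, with called genes as red squares and black bars at the medians. The median was 0.32 for the 10 pollen wall genes and -0.10 for the other pollen wall genes, and the called genes were *OsC6* and 2 copies of the Rubisco small subunit.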

How the data were processed

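Total RNA of young panicles from NIL-*hfr131* (3 libraries) and 187R (3 libraries) was made into cDNA libraries and sequenced on an MGISEQ-2000 platform. The authors deposited TPM values, although their methods name FPKM, and each column summed to 1000000. The aligner, genome build and annotation are not given in the sources used here. The labels call the libraries biological replicates, without saying how many plants each holds.

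Genes with a mean of at least 1 TPM were kept, 1 was added, and the lines were compared on the log2 scale in limma 3.58.1 (R 4.3.3) with line as the term (trend = TRUE, two-sided, Benjamini-Hochberg adjustment over all tested genes, threshold 0.05). The fit was tested on simulated data, drawn with the same spread for a gene in every library. No library stood apart in those data, unlike NIL-*hfr131* replicate 3 here. Summaries used Python 3.11.15, pandas 2.3.3 and numpy 2.4.6, and figures matplotlib 3.10.9. The alternatives were a pseudocount of 0.1, no minimum (genes above 0 in any library), a minimum of 5 TPM, a constant prior, quantile normalization, median-of-ratios factors, the replicate number as a block, and each library left out.

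The members and lists were chosen with earlier results of these data known. All 10 members are named, and of each other list the called genes and the 2 with the highest mean TPM; any gene outside this rule is marked or is given as a neighbour of *OsC6*. Identifiers were paired with names from general knowledge, since 0 of them matched the RefSeq rice table; that table lists the name on the same chromosome for 4 of the 10 members and 32 of the 48 other genes, and list genes without such a match are given by identifier. No sequences are shown.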

Additional observations from a re-analysis of the deposited data

How the results depend on the processing

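Of the 10 genes, *OsC6* was the only one called over all libraries, and its log2 fold change was 1.48 to 1.62 over all 13 alternatives. With any 1 library left out, 0 to 2 of the 10 were called (2 where NIL-*hfr131* replicate 3 was left out, 0 where replicate 2 or any 187R library was), and the number of all genes called, 66 over all libraries, ranged from 13 to 384. With the replicate number as a block, 0 of the 10 and 16 genes in all were called, and *OsC6* had an adjusted p = 0.0787 (limma); deviations of same-numbered libraries had correlations of -0.21, 0.06 and 0.09 across genes, so the numbers were not taken as pairs. The direction turned for 2 genes that were not called. *CYP703A3*, at -0.08, ranged from -0.19 to 0.08 with 1 library left out, and was above 0 only without NIL-*hfr131* replicate 3 (0.082). *OsACOS12*, at 0.06, ranged from -0.05 to 0.14, and was below 0 without 187R replicate 1 (-0.049) or NIL-*hfr131* replicate 1 (-0.03). Median-of-ratios factors and quantile normalization turned none of the 10. *OsCP1* is under the minimum of 5 TPM and has no value there. The called Rubisco copies kept their direction in all alternatives, with calls lost under the block and in 5 and 4 of the 6 fits without 1 library. TPM keeps no depth, so the counting error of the weakly expressed *OsCP1* is unknown.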

Other observations

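Around the other 9 genes, the tested neighbours within 1000 locus numbers had median log2 fold changes of 0.02 to 0.10. None was called around *CYP703A3*, *CYP704B2*, *DPW*, *WDA1*, *OsABCG15*, *OsPKS1*, *OsACOS12* and *OsCP1*, and 1 of 97 was called around *OsRAFTIN1* (limma). Over all tested genes the share called was 0.307%. Without NIL-*hfr131* replicate 3, the number called was 3 around *OsRAFTIN1*, 2 around each of *OsABCG15*, *OsCP1* and *OsC6*, 1 around each of *CYP703A3* and *WDA1*, and 0 around the other 4 genes. That fit called 384 of 21276 genes. Over all libraries, the tested neighbours numbered 97 around *OsRAFTIN1*, 87 around *OsABCG15*, 133 around *OsCP1*, 56 around *OsC6*, 69 around *CYP703A3* and 91 around *WDA1*. The neighbours tested in the fit without that library were not counted apart. None of the 10 genes lies on chromosome 1, which carries *OsBRI1*.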
